A study of Bos taurus with 16 samples.

Results

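The 6 imprinted genes of growth and development, IGF2, IGF2R, MEST, PEG3, DLK1 and NNAT, were followed in the corpus luteum of Japanese Black cows, an ovarian gland that makes progesterone, across the cycle and pregnancy. They were chosen by name and because several of them were low on days 150-160 of pregnancy, so the levels at that stage are given here as a description, with no test. The genes were found through the gene name, accession and description of each spot: 7 of the 15208 probes of the array belonged to them, 2 probes to MEST and 1 to each of the other genes, and they stand for 6 of 6636 genes with a symbol. All 7 probes were well above background on all 16 arrays, passed the filter on dim probes and were among the 11941 probes tested.

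Total RNA of each gland was amplified to Cy3-labelled cRNA and measured on a custom bovine oligonucleotide array of 1 colour, 1 array per cow. There were 4 groups of 4 separate animals. Cyclic cows, not pregnant, were at days 10-12 of their cycle. Pregnant cows were at gestation days 20-25, at days 40-45 or at days 150-160, counted from insemination on day 1. All were Japanese Black cows of 1 ranch whose ovaries were collected soon after exsanguination, and no treatment is named in the labels. The glands of pregnant cows came from later days than those of cyclic cows, so the age of the gland and pregnancy cannot be told apart. Brightness varied between arrays, with 75th percentiles of signal of 2020.5 to 4288.4, and 71.9% to 79.6% of probes exceeded background clearly. There were 2 slides, and each held 2 cows of every group, cows 1 and 2 on the first slide and cows 3 and 4 on the second. An array's place on its slide cannot be told apart from the group. The 7 luteal markers, among them STAR and CYP11A1 of progesterone synthesis, were well above background in every group, with a summed linear level of 253 to 580 times an array's 75th percentile in cyclic cows and 432 to 493 on days 150-160.

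An imprinted gene is read mainly from the copy inherited from 1 parent. In mouse and human, IGF2, MEST, PEG3, DLK1 and NNAT are read from the paternal copy, while IGF2R is read from the maternal copy in mouse and in cattle. IGF2 is a growth factor that signals through the IGF1 and insulin receptors, and IGF2R takes it up and delivers it to lysosomes, where it is broken down. In the cycling ovary IGF2 is known as a product of the cells of the follicle and the corpus luteum that supports their growth and steroid output. The arrays measured the total transcript of each gene and did not tell the parental copies apart.

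Levels are log2 processed signals from which the same array's 75th percentile was subtracted, so that 0 is the 75th percentile and 1 unit is a factor of 2. A level belongs to its own probe and is not set against the level of another probe.

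IGF2 had the lowest mean on days 150-160 and stepped down at each stage. It stood at 0.53, -0.13, -0.28 and -0.14 in the 4 cyclic cows, at -0.31, -0.23, -1.34 and -0.35 on days 20-25, at -1.06, -1.09, -1.58 and -1.25 on days 40-45, and at -1.51, -2.47, -2.72 and -1.37 on days 150-160. The group means were -0.005 ± 0.36, -0.56 ± 0.52, -1.24 ± 0.24 and -2.02 ± 0.68 in that order (SD, n = 4 each). Every cow of days 40-45 and 150-160 lay below every cyclic cow, whereas days 20-25 overlapped cyclic cows, and days 150-160 overlapped days 40-45. Days 150-160 lay 2.01 below cyclic cows on the log2 scale, a 4.03-fold lower level, with -2.19 on the first slide and -1.83 on the second.

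IGF2R, the cation-independent mannose 6-phosphate receptor, moved over a narrow range. Its levels were 3.55, 3.41, 3.38 and 3.21 in cyclic cows, 3.34, 3.54, 2.94 and 3.87 on days 20-25, 3.06, 2.79, 2.94 and 3.34 on days 40-45, and 3.14, 2.93, 2.64 and 3.10 on days 150-160. All 4 cows of days 150-160 lay below the lowest cyclic cow, by a small margin (3.14 against 3.21 for the nearest cows), and the cows of days 20-25 spanned the cyclic range on both sides. The means differed by -0.43 between days 150-160 and cyclic cows, 1.35-fold lower, with -0.45 and -0.42 on the slides.

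MEST, a paternally read gene whose protein belongs to the alpha/beta hydrolase fold family, was measured by 2 probes. One of them is printed here because the probes share no stretch of 12 bases and so read different stretches of the transcript:
ABR1521: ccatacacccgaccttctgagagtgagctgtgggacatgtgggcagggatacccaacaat
This probe is 60 bases long, and MEST lies on bovine chromosome 4 in the RefSeq gene table. The brighter probe, A_73_100042, stood at -0.64, -0.40, -2.10 and -2.07 in cyclic cows, at -1.22, -1.51, -1.98 and -0.95 on days 20-25, at -3.53, -3.32, -3.31 and -1.93 on days 40-45, and at -3.73, -4.94, -4.28 and -4.83 on days 150-160. Days 150-160 overlapped no other stage, and cow 4 of days 40-45 stood among the cyclic cows. The cyclic cows fell apart by slide, cows 1 and 2 on the first slide being the higher pair. Days 150-160 lay 3.14 below cyclic cows, 8.83-fold lower, with -3.81 on the first slide and -2.47 on the second.

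The dimmer probe ABR1521 was also low on days 40-45 and 150-160, with smaller steps. It stood at -3.96, -3.52, -5.56 and -4.67 in cyclic cows, at -4.08, -4.28, -4.35 and -3.95 on days 20-25, at -5.83, -5.76, -5.93 and -4.74 on days 40-45, and at -5.42, -5.90, -5.94 and -5.91 on days 150-160. Its difference between days 150-160 and cyclic cows was -1.37, or -0.60 with normexp background correction, and these groups overlapped through cyclic cow 3. At its lowest this probe lay 0.46 log2 units above the lowest signal called well above background on the same array, and the brighter probe 1.46. Deviations of the cows from their group means correlated between the 2 probes with r = 0.89 over 16 cows.

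PEG3, a zinc finger protein read from the paternal copy, was lowest on days 150-160. It stood at 2.43, 3.08, 2.50 and 2.08 in cyclic cows, at 2.51, 2.73, 1.79 and 3.29 on days 20-25, at 1.89, 1.31, 1.48 and 2.75 on days 40-45, and at 1.68, 1.30, 0.87 and 1.28 on days 150-160. All cows of days 150-160 lay below all cows of the cyclic and day 20-25 groups, and cow 4 of days 40-45 was again the high one of its group. Days 150-160 lay 1.24 below cyclic cows, 2.36-fold lower, with -1.27 and -1.21 on the slides.

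DLK1 and NNAT did not follow this course. DLK1, a membrane protein with EGF-like repeats related to the Notch ligands, stood at -1.66, -1.12, -1.50 and -2.26 in cyclic cows, at -1.70, -1.25, -1.86 and -1.69 on days 20-25, at -0.61, -0.92, -1.75 and -1.74 on days 40-45, and at -0.82, -0.82, -1.87 and -0.94 on days 150-160. On days 150-160, 3 cows lay above every cyclic cow and cow 3 lay among the cyclic cows, and the means differed by 0.52, with 0.57 and 0.47 on the slides. NNAT, a small proteolipid of the endoplasmic reticulum, stayed between -3.10 and -2.36 in all 16 cows. Its means on days 150-160 and in cyclic cows differed by 0.12, with 0.35 on the first slide and -0.11 on the second.

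**Figure D1:**
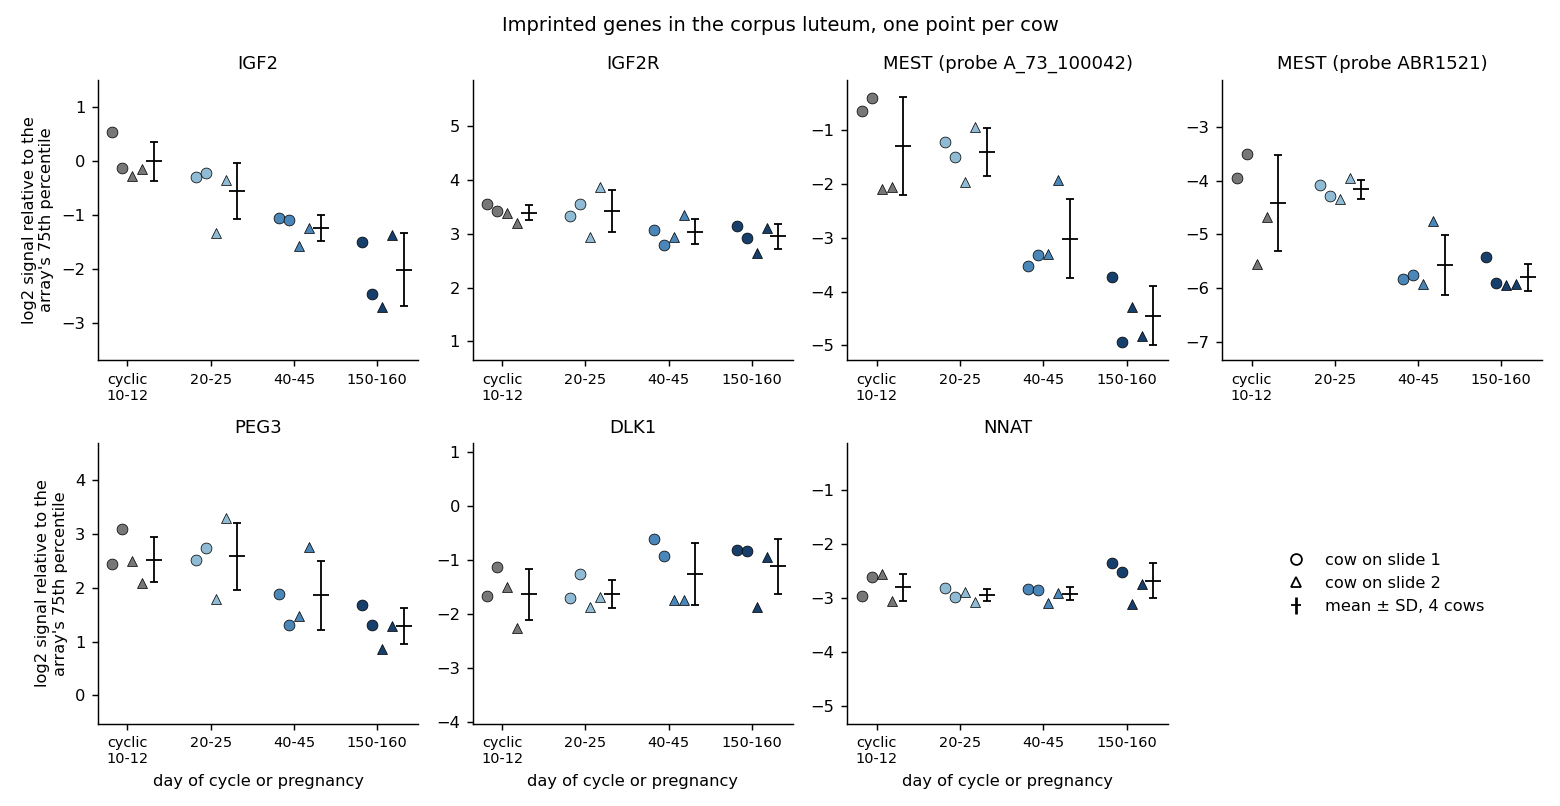
Level of each probe in each cow, as log2 signal relative to the 75th percentile of the array, by stage. Circles are cows on slide 1, triangles cows on slide 2, and bars show the mean and SD of 4 cows; every panel spans the same number of log2 units. IGF2 and MEST probe A_73_100042 step down to means of -2.02 and -4.45 on days 150-160, while NNAT stays between -3.10 and -2.36.

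On the day 150-160 side, 4 of the 7 probes, those of IGF2, IGF2R and PEG3 and the brighter probe of MEST, lay below all cyclic cows, and 5 of 7 had a lower mean than in cyclic cows. Of all probes with values on these arrays 5.08% were lower without overlap in this comparison, and 7.98% were called in either direction. These members were selected on this comparison, so nothing is read from their count. The means of IGF2 and of the brighter MEST probe were highest in cyclic cows and lower at each later stage. For IGF2R, PEG3 and MEST probe ABR1521 days 20-25 had the highest mean, above cyclic cows by 0.04, 0.06 and 0.26, which is less than the spread within either group for IGF2R and PEG3 and less than the cyclic SD of 0.89 for the MEST probe.

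Against the neighbouring stages, IGF2 was 1.46 lower on days 150-160 than on days 20-25 and 0.77 lower than on days 40-45. For the brighter MEST probe these differences were -3.03 and -1.42, and for PEG3 -1.30 and -0.57. For DLK1 they were 0.51 and 0.14, and for NNAT 0.26 and 0.24. Over all probes, 1.57% were called between days 150-160 and 20-25 and 0.0419% between days 150-160 and 40-45.

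The comparisons that did not involve days 150-160 were tested with limma over all probes. The genes were chosen with earlier results of these data known, and a fall by days 150-160 is seen against the same cyclic cows. These tests are therefore not independent of that choice, and their p-values and intervals are descriptive. On days 20-25 against cyclic cows, 0 of the 7 probes passed an adjusted p of 0.05, against 0.293% of all probes, and 0 had an unadjusted p under 0.05. The largest difference was that of IGF2, -0.55 ± 0.32 (SE) with a 95% interval of -1.23 to 0.12 and an adjusted p of 0.439, with -0.47 on the first slide and -0.64 on the second. The intervals of IGF2R, from -0.37 to 0.44, and of PEG3, from -0.67 to 0.79, lay on both sides of 0. The median difference of the 7 probes was 0.01, and that of all probes 0.05.

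On days 40-45 against cyclic cows, again 0 of 7 probes passed, against 1.23% of all probes, while 3 had an unadjusted p under 0.05. IGF2 differed by -1.24 ± 0.32 (SE), 2.36-fold lower, with a 95% interval of -1.92 to -0.56 and an adjusted p of 0.0739. It was the 1 probe of the 7 with no overlap between these groups, against 4.56% of all probes lower without overlap, and the difference was -1.27 on the first slide and -1.21 on the second. With a fit of these 2 groups alone its adjusted p was 0.0446.

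MEST differed by -1.72 ± 0.44 (SE) at the brighter probe, with an interval of -2.67 to -0.77 and an adjusted p of 0.0756. At the dimmer probe it differed by -1.14 ± 0.36 (SE), with an adjusted p of 0.137. These differences sat mostly on the first slide, at -2.90 and -2.06, against -0.54 and -0.22 on the second slide, and within the first slide alone both probes passed, with adjusted p of 0.0491 and 0.0387. Within the second slide alone neither passed. Leaving out each cow in turn, the brighter probe passed for 2 of 16 cows and the dimmer for 1 of 16, with an adjusted p of up to 0.194 and 0.315. Both passed without cyclic cow 3 (adjusted p = 0.0438 and 0.0238), and the brighter probe without cow 4 of days 40-45 (0.0372). These were the lowest cyclic cow and the highest cow of days 40-45, so leaving them out widens the difference.

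The other members differed less between days 40-45 and cyclic cows. PEG3 differed by -0.67 ± 0.34 (SE, adjusted p = 0.399), with -1.16 on the first slide and -0.17 on the second. IGF2R differed by -0.35 ± 0.19 (SE, adjusted p = 0.422), with -0.56 and -0.15 on the slides. DLK1 differed by 0.38 ± 0.31 (SE, adjusted p = 0.646) and NNAT by -0.12 ± 0.16 (SE, adjusted p = 0.821). The median of the 7 probes was -0.67, and that of all probes 0.02.

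Between days 40-45 and days 20-25, 0 of 7 probes passed, against 0.0335% of all probes, and 3 had an unadjusted p under 0.05. The dimmer MEST probe was lower in every cow of days 40-45 than in every cow of days 20-25, which held for 6.28% of all probes, with a difference of -1.40 ± 0.36 (SE, adjusted p = 0.297). The brighter MEST probe differed by -1.61 ± 0.44 (SE, adjusted p = 0.347). IGF2 differed by -0.69 ± 0.32 (SE, adjusted p = 0.589), and PEG3 by -0.72 ± 0.34 (SE, adjusted p = 0.60). The comparisons with cyclic cows share the 4 cyclic arrays, and those of a stage with 2 others share that stage.

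**Figure D2:**
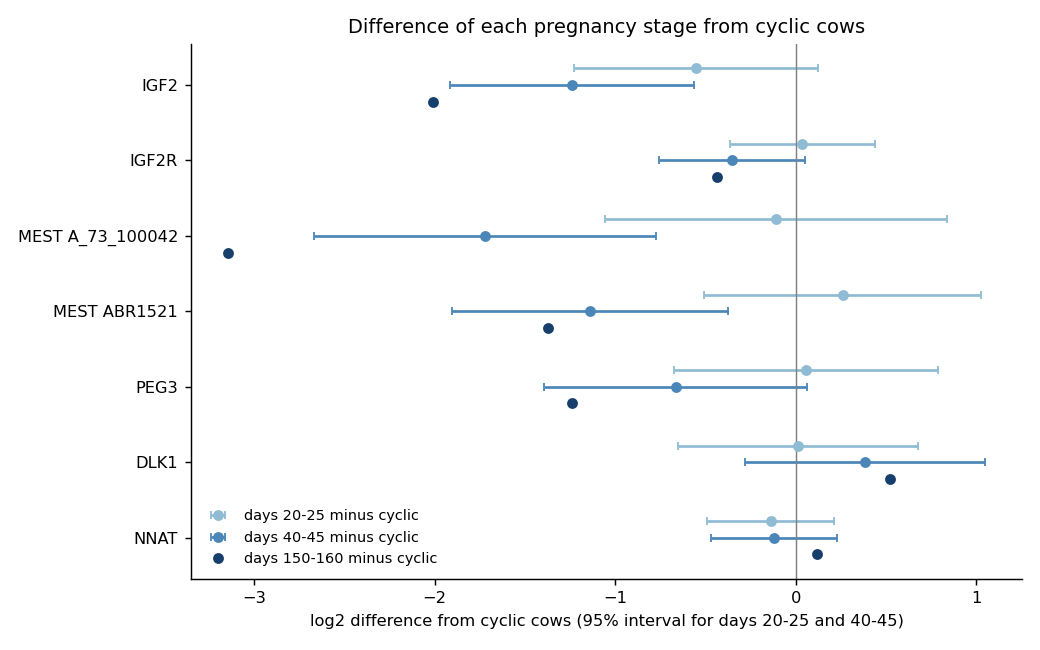
Log2 difference of each pregnancy stage from cyclic cows for each probe, with points for the estimate and 95% intervals from the limma fit for days 20-25 and 40-45. Days 150-160 carry no interval because the genes were chosen on that stage. At days 40-45 the intervals of IGF2 (-1.92 to -0.56) and of both MEST probes lie below 0, although no probe passed after adjustment over all probes. The intervals are not independent of the choice of the genes, which drew on the same cyclic cows.

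Variation between cows of the same group was examined next, since it is free of the stage differences that chose the genes. Deviations from the group mean were correlated over 16 cows for the 15 pairs of genes, with the brighter probe standing for MEST and with permutation within groups. IGF2R and PEG3 varied together most closely, with r = 0.882 (permutation p = 0.00024, adjusted p = 0.0036) and rho = 0.847 (permutation p = 0.0007, adjusted p = 0.0105). On days 20-25, for example, cow 4 was the highest of its group for both genes, at 3.87 for IGF2R and 3.29 for PEG3, and cow 3 the lowest for both, at 2.94 and 1.79. Without the 2 cows farthest from the median for IGF2R r was 0.817, with slide removed 0.881, and without any single cow between 0.839 and 0.933. Of all probes, the central 90% had an r with IGF2R between -0.57 and 0.59, so the PEG3 value lay above that range.

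MEST and PEG3 had r = 0.701 (permutation p = 0.0059, adjusted p = 0.0295) and rho = 0.571 (adjusted permutation p = 0.108). Without the 2 cows farthest in MEST r was 0.509, and over the leaving out of single cows it lay between 0.571 and 0.761 with an adjusted permutation p of up to 0.12, the last without cow 4 of days 40-45. DLK1 and NNAT had r = 0.714 (permutation p = 0.00441, adjusted p = 0.0295) and rho = 0.641 (adjusted permutation p = 0.062). Without the 2 cows farthest in DLK1 r was 0.489, with slide removed 0.597, and without cow 3 of days 150-160, the lowest of its group for both genes, 0.569 with an adjusted permutation p of 0.11. Both relations rest on few cows.

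IGF2 and IGF2R had r = 0.669 (permutation p = 0.0146, adjusted p = 0.0548), which was 0.405 without the 2 cows farthest in IGF2. IGF2 and MEST, the genes with the largest differences between stages, had r = 0.329 (permutation p = 0.209, adjusted p = 0.348). The other 10 pairs had an adjusted permutation p of at least 0.0555. Across the 6 genes the deviations correlated with the array's log2 75th percentile at r between -0.12 (PEG3) and 0.36 (IGF2). With the percentage of probes well above background they correlated at -0.30 for IGF2R, -0.02 for PEG3, 0.20 for MEST, 0.37 for DLK1 and 0.45 for NNAT, and the part of these measures in the relations was not tested.

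**Figure D3:**
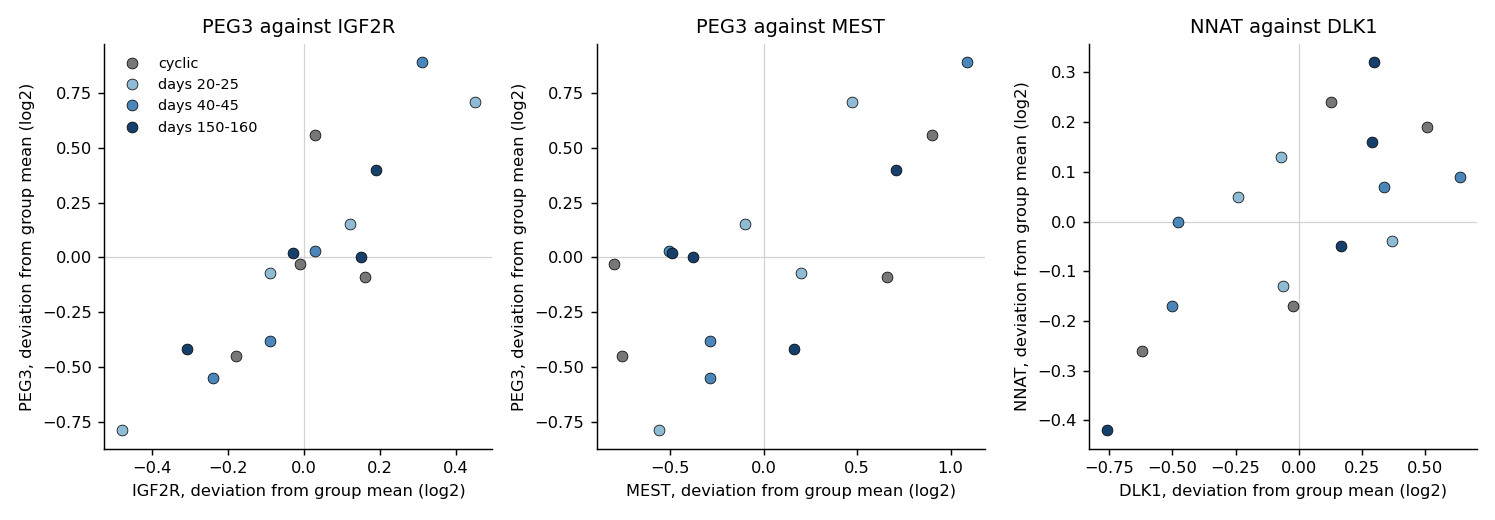
Deviation of each cow from the mean of its group, in log2 units, for PEG3 against IGF2R, PEG3 against MEST (probe A_73_100042) and NNAT against DLK1; each point is 1 of 16 cows, coloured by stage. The IGF2R and PEG3 points follow a line (r = 0.882), and the looser MEST and PEG3 (r = 0.701) and DLK1 and NNAT (r = 0.714) plots depend on a few outlying cows.

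Other imprinted genes were taken from a list of 52 genes imprinted in human, mouse, sheep or cattle, of which 29 had a probe and 25 were tested. On days 150-160 against cyclic cows 1 of the 25 rose and 2 fell, against 7.98% of all probes called, and the median of the list was 0.01 beside 0.03 for all probes. No member of the list was called on days 20-25 or 40-45 against cyclic cows, where 5 and 2 had an unadjusted p under 0.05, or between the pregnancy stages, where 4, 6 and 2 did, by limma.

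PLAGL1, a zinc finger transcription factor that in mouse acts on other imprinted genes including Igf2, fell by 0.75 ± 0.17 (SE, adjusted p = 0.0143). It stood at -1.71, -1.85, -2.04 and -1.94 on days 150-160, against -1.27, -0.79, -0.99 and -1.50 in cyclic cows, with -0.76 and -0.74 on the slides. The groups had no overlap, where 5.08% of all probes were lower without overlap. The PLAGL1 call was lost with the 2 groups alone (adjusted p = 0.0759) and within each slide (0.106 and 0.404), and kept when any single cow was left out. DIO3, the deiodinase that inactivates thyroid hormone and lies on the chromosome of DLK1, rose by 1.21 ± 0.29 (SE, adjusted p = 0.02). It stood at -5.73, -6.38, -6.56 and -5.87 on days 150-160, against -7.78, -6.63, -7.41 and -7.54 in cyclic cows. DIO3 passed the filter on dim probes only through days 150-160, the stage where it is high, so its test is not independent of that rise. The groups did not overlap, which held for 11.7% of all probes in either direction. DIO3 was well above background on 4 of 4 arrays of days 150-160 and on 1 of 4 in each other group, cyclic cows included. The cyclic level therefore rests mostly on values near background: the DIO3 difference was 0.71 (adjusted p = 0.0527) with values under background raised to it, and 0.54 (adjusted p = 0.0964) with normexp background correction. Its adjusted p was 0.0677 with the 2 groups alone and 0.0514 to 0.0552 when cyclic cow 1, cyclic cow 4, or cow 1 or cow 4 of days 150-160 was left out.

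GATM, an enzyme of creatine synthesis, was well above background on 0 of 4 arrays of days 150-160 and on 3 of 4 in cyclic cows. Its means were -7.64 as measured on days 150-160 and -5.81 in cyclic cows (adjusted p = 0.0354), which bounds the difference of these means at 1.55-fold or more. The bound holds for the means under this processing and is not a confidence limit. With normexp background correction the GATM difference was -0.43 (adjusted p = 0.227), and with values under background raised to it -0.74 (adjusted p = 0.34). On the slides it was -3.04 and -0.61. The second probe of GATM differed by -0.59 (adjusted p = 0.586), and the call at the first was lost when cyclic cow 1 (adjusted p = 0.0883), cyclic cow 2 (0.0767) or any 1 of the cows of days 150-160 (0.0559 to 0.0795) was left out. Of the genes that did not pass, PON3 differed by 1.02, CDKN1C by 0.93, ATP10A by 0.92 and MAGEL2 by -1.02, with adjusted p of 0.616, 0.105, 0.187 and 0.221. ATP10A in cyclic cows and MAGEL2 on days 150-160 were well above background on no array. ATP10A was well above background on only 2 of 4 arrays of days 150-160. Its mean there, -6.39, also rests on values near background, so no bound is given for it. MAGEL2 was well above background on 3 of 4 cyclic arrays. Its group mean on days 150-160 has a bound of at least 1.12-fold lower, for a difference that did not pass.

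INS, COPG2 and BLCAP, near neighbours of members in the genome picked out by position after their values had been seen, did not pass the test. DIO3 and PLAGL1, called above, lie farther off on the chromosomes of DLK1 and IGF2R, with 109 and 151 annotated genes between. In the RefSeq gene table of assembly ARS-UCD2.0, used here for gene order alone, INS stands next to IGF2, COPG2 overlaps MEST and BLCAP overlaps NNAT. On days 150-160 against cyclic cows INS differed by 0.43 ± 0.20 (SE, adjusted p = 0.215), COPG2, a coat protein of transport vesicles, by 0.008 ± 0.34 (SE, adjusted p = 0.994) and BLCAP by 0.26 ± 0.14 (SE, adjusted p = 0.274). MEST and COPG2 thus gave -3.14 and 0.008 in the same cows.

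**Figure D4:**
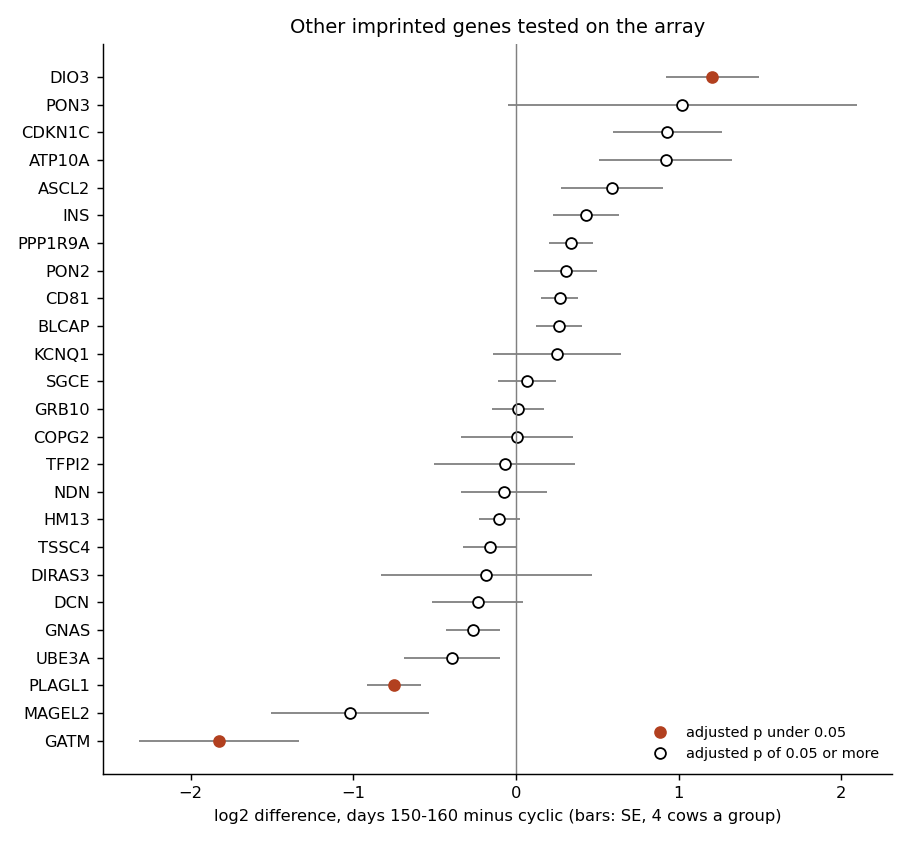
Log2 difference between days 150-160 and cyclic cows for the 25 other imprinted genes tested, with bars for the SE and 4 cows in each group. Filled points passed an adjusted p of 0.05: DIO3 at 1.21, PLAGL1 at -0.75 and GATM at -1.83, the last a fitted value for a probe not well above background on days 150-160. DIO3 passed the filter on dim probes only through days 150-160.

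The genes around IGF2 and IGF2R were described with lists of their pathway. Of 21 genes of the IGF axis 13 had a probe and 11 were tested: 4 rose and 1 fell on days 150-160 against cyclic cows, 1 rose and 1 fell on days 40-45, and 1 rose on days 20-25. Of all probes 7.98%, 1.23% and 0.293% were called in these comparisons. IGFBP6, a binding protein that prefers IGF2 to IGF1, rose at each of these stages, by 1.19 ± 0.20, 1.51 ± 0.20 and 1.91 ± 0.20 (SE, adjusted p = 0.0297, 0.00223 and 9e-05). The cows of days 150-160 had IGFBP6 at 3.19, 2.51, 3.14 and 3.49, against 1.27, 0.75, 1.30 and 1.40 in cyclic cows, the opposite direction to IGF2. The call of IGFBP6 on days 20-25 was lost without cyclic cow 2 or 4 or cow 1, 2 or 3 of days 20-25, with an adjusted p of up to 0.0865.

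IGFBP5, another binding protein, fell by 2.07 ± 0.44 on days 40-45 and by 1.79 ± 0.44 on days 150-160 (SE, adjusted p = 0.0357 and 0.0222). Leaving out single cows ended the first of these calls for 8 of 16 cows and the second for 4, with an adjusted p of up to 0.111 and 0.0588. On days 150-160 IGFBP2 rose by 4.87 ± 1.05 (SE, adjusted p = 0.0126), standing at 1.13, -3.99, 0.35 and 1.27 on days 150-160, against -5.69, -5.01, -5.05 and -4.98 in cyclic cows. IGFALS, which holds circulating IGFs in a complex, rose by 1.54 (adjusted p = 0.0401), a call that leaving out any 1 of 10 cows ended, and PAPPA, a protease of IGF binding proteins, by 0.75 (adjusted p = 0.0157, and 0.0646 with normexp). STC1 differed by 1.23, IGFBP3 by -1.08, IGFBP4 by 0.41 and GHR by -0.37, none past the threshold. IGF1 had 2 probes, well above background on 3 and on 0 of 16 arrays, and was not tested.

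IGF2R also carries lysosomal enzymes tagged with mannose 6-phosphate, and 11 genes of that pathway were tested of 18 listed. By limma 0 of 11 were called in any comparison, where 0.0335% to 7.98% of all probes were called, so that a count of 0 is close to the array as a whole, with 1 at an unadjusted p under 0.05 on days 150-160 against cyclic cows, 1 on days 40-45 against cyclic cows and 1 on days 150-160 against days 40-45. The largest differences on days 150-160 were those of the protease CTSB at 0.53 (adjusted p = 0.162), GNPTG of the tagging enzyme at -0.43 (adjusted p = 0.287), LAMP1 of the lysosomal membrane at 0.36 (adjusted p = 0.285) and HEXA at 0.31 (adjusted p = 0.225). The array of days 40-45 cow 1 had no value for LAMP1 because of an outlier flag. GNPTG was well above background on 0 of 4 arrays of days 150-160. Its mean there has a bound of at least 1.21-fold lower, for a difference that did not pass the test.

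Markers of fibroblasts and of proliferating cells were lower at the stage where IGF2, MEST and PEG3 were low. On days 150-160 against cyclic cows 5 of 8 fibroblast markers fell and 0 rose, where 7.98% of all probes were called, with a list median of -1.38 beside 0.03 for all probes. The count was 3 without cyclic cow 1 or 2 or without cow 2, 3 or 4 of days 150-160, and it was 2 within the first slide and 0 within the second. The calls of COL1A1 and COL3A1 were lost when any 1 of 10 and of 5 cows was left out, with an adjusted p of up to 0.121 and 0.0836. The others that fell were COL1A2 at -2.72 (adjusted p = 0.00145), FN1 at -1.95 (adjusted p = 0.000341) and THY1 at -1.87 (adjusted p = 0.0156). The summed linear level of the 8 markers was 21.6 to 29.5 times the array's 75th percentile on days 150-160, against 41.5 to 56.1 in cyclic cows, and 44.6 to 70.6 and 36.2 to 51.8 on days 20-25 and 40-45. Of 8 markers of proliferating cells 3 fell and 0 rose, with a median of -1.64: AURKB at -2.44 (adjusted p = 0.000274), CCNB2 at -1.996 (adjusted p = 0.0178) and PRC1 at -1.74 (adjusted p = 0.019, and 0.0509 without cyclic cow 2). The summed level of these 8 markers was 2.36 to 3.37 on days 150-160, against 3.38 to 5.21 in cyclic cows, so the nearest cows almost met. It was 2.92 to 4.26 on days 20-25 and 2.83 to 3.6 on days 40-45, both overlapping days 150-160. On days 40-45 against cyclic cows AURKB fell by 1.83 (adjusted p = 0.00744), at the stage where IGF2 and MEST were lower without passing. It was the 1 of 8 proliferation markers called there, and 0 of 8 fibroblast markers were called, where 1.23% of all probes were. The list medians were -0.88 and -0.46, with 2 of the fibroblast markers higher than in cyclic cows.

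Among the other marker lists on days 150-160, 0 of 7 luteal markers were called by limma (0 with an unadjusted p under 0.05), 2 of 10 endothelial markers rose (ENG and TEK) and 2 of 7 leukocyte markers fell (CD68 and MRC1). Of 7 follicular markers 1, CYP17A1, rose. With 7.98% of all probes called, counts of 1 or 2 in lists of this size are not far from the array as a whole. In whole glands, fewer cells of a type and less RNA per cell cannot be told apart, and the part of these cells in the levels of the imprinted genes was not tested. All 25 called changes of the IGF axis, the other imprinted genes and the fibroblast and proliferation markers kept their sign on both slides. Each slide held 2 cows of every group, so the called changes average the slides and agreement in sign was largely fixed by the design. Only the call of IGFBP6 on days 150-160 against cyclic cows stood within both slides, where fewer arrays were fitted. Every other call was lost within at least 1 slide.

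The probes whose course over the 16 arrays was nearest to that of IGF2, by the root mean square difference of centred log2 levels, were those of AURKB (0.398), PLA2G4A (0.404), GFRA2 (0.429) and SNAI2 (0.463), where the median over all tested probes was 0.926. The PLA2G4A probe was well above background on 3 cyclic arrays, 2 of days 20-25, 1 of days 40-45 and 0 of 4 on days 150-160. It thus passed the filter on dim probes only through cyclic cows, the group where it is highest. Its distance rests partly on values at background, and its place in this order is uncertain. AURKB is a mitotic kinase, GFRA2 a receptor subunit for neurturin, and SNAI2 a transcriptional repressor. Of the other members PEG3 lay at 0.549, IGF2R at 0.648, MEST at 0.838 and 0.629, NNAT at 0.91 and DLK1 at 1.063 from IGF2. Nearest to the brighter MEST probe were the collagen gene COL1A2 (0.421), the matrix proteins SPON1 (0.492) and VCAN (0.606), and the replication-linked PCLAF (0.592), with a median of 1.454 over all tested probes. The PCLAF probe was well above background on 2 of 4 arrays of days 40-45 and on 0 of 4 of days 150-160, and its distance is uncertain in the same way. The members lay farther from MEST, with IGF2 at 0.838, PEG3 at 0.872, IGF2R at 1.202, NNAT at 1.488 and DLK1 at 1.68. The distances include days 150-160, the stage that chose the members, so a near probe partly restates that fall and is not separate support. They also depend on how widely a probe varied: the brighter MEST probe had an SD of 1.47 over 16 arrays. The SD was 0.89 for IGF2, 0.72 for PEG3, 0.32 for IGF2R, 0.22 for NNAT and 0.48 for DLK1.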

How the data were processed

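Total RNA of 16 corpora lutea was hybridised to 1-colour bovine arrays, per the labels. Scans were read with Agilent Feature Extraction 9.5, per the submitters' processing notes. Per the file headers, the deposited processed signals are linear intensity values after subtraction of a spatial background surface. The authors' deposited value table is on a log2 scale and departs by at most 0.0046 from log2 signal minus a constant for each array, close to its 75th percentile; column medians lay between -3.18 and -2.98, and it was used as an alternative. The other steps were made here. Of 15744 spots 536 controls were left out, and 220 values with non-uniformity flags were set to missing. Levels are log2 signal minus each array's 75th percentile. Probes well above background and unflagged on at least 3 of 4 arrays of a group (11941) were fitted with limma 3.58.1 in R 4.3.3, with group as the term over all 16 arrays, Benjamini-Hochberg adjustment and a threshold of 0.05 (residual degrees of freedom 12, prior 2.77); 1 probe had no value on days 150-160. The fit was tested on simulated data. Symbols came from accession (2496 probes), gene ID (1980), symbol (1586) or description (889) through RefSeq names, and 8257 probes stayed unnamed. A gene of a list is shown by its brightest probe. Where no array of a group was well above background, folds are bounds, with each dim value raised, where it was lower, to the smallest signal called well above background on its array. These bounds apply to group means and are not confidence limits. Correlations used 100000 permutations within groups, two-sided.

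The members and the gene lists were chosen with earlier results of these data known. Named genes were all member probes, of the imprinted, IGF axis and mannose 6-phosphate lists each called gene and up to 4 more with the largest difference on days 150-160 against cyclic cows, up to 3 called markers of a list, and the 4 nearest probes with a symbol; INS, COPG2 and BLCAP were added after their values were seen. The number of arrays, 4 in a group, limits the precision. Alternatives were background correction, scaling, the deposited table, filters on dim probes, slide, replicate block, a fit of the compared groups alone, a floor, and leaving out each cow.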

Additional observations from a re-analysis of the deposited data

Results flagged for a closer look

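Within a group of 4 cows, a sample was singled out when its gap to the nearest other cow took up more of the group's range than Dixon's 95% critical value. Of 196 groups checked over the named genes 17 met this, and chance gives about 1 in 20 groups. Among the members, IGF2 stood at -1.34 in cow 3 of days 20-25, with the other cows of that group at -0.35 or above. MEST stood at -1.93 (probe A_73_100042) and -4.74 (probe ABR1521) in cow 4 of days 40-45, above the other cows of days 40-45 at -3.31 or below and at -5.76 or below. The same cow had CCNB2 at -3.46, with the others at -4.38 or below. DLK1 stood at -1.87 in cow 3 of days 150-160, with the others at -0.94 or above.

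Cow 1 of days 150-160 was the high one of its group for MEST probe ABR1521 at -5.42, for AURKB at -3.68 and for THY1 at 0.79, with the other cows at -5.90, -4.31 and -0.71 or below. Cyclic cow 1 stood at -1.09 for AURKB, above the others, and at -5.69 for IGFBP2, below them. Cow 4 of days 20-25 stood apart for GATM (-5.05), FN1 (1.58), ATP10A (-8.54) and COPG2 (0.78, with the other cows at 2.65 or above). BLCAP stood at -4.00 in cow 3 of days 20-25, CYP17A1 at -2.36 in cyclic cow 3 and VCAN at -4.82 in cow 4 of days 150-160. The causes were not tested.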

How the results depend on the processing

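No called change turned direction under the alternatives run, and days 150-160 against cyclic cows had the most probes called under each of them. The IGF axis, mannose 6-phosphate genes, correlations and fibroblast and proliferation markers were put through the alternatives after the data had been seen. For days 40-45 against cyclic cows, the 147 called probes became 94 with normexp, 90 with no filter, 51 within slide 1, 12 within slide 2 and 73 with the 2 groups alone. For days 150-160 against cyclic cows, 953 became 250, 21 and 314 within slide 1, within slide 2 and with the 2 groups alone. For days 20-25 against cyclic cows, 35 became 78 when slide was a block, 3 and 6 inside slides 1 and 2, and 2 with the 2 groups alone. For days 150-160 against days 20-25, 187 became 3, 7 and 118 inside slides 1 and 2 and with the 2 groups alone. For days 40-45 against days 20-25, 4 became 8 with no filter, 1 with probes bright on all arrays, 7 with slide as a block or the 2 groups alone, and 0 within either slide. For days 150-160 against days 40-45, 5 became 9 with the deposited table or the floor, 17 with no filter, 2 with probes bright on all arrays, 13 with slide as a block, 1 within slide 1 or with the 2 groups alone, and 0 within slide 2. With the replicate block these last comparisons had 0 and 14 called, the IGF2 change of -1.24 on days 40-45 against cyclic cows passed (adjusted p = 0.0221), and the block changed no other call of a member, while it ended those of COL1A1 and COL3A1 on days 150-160. Replicate numbers were not taken to pair the cows. Same-numbered arrays of different groups had deviations correlated from 0 to 0.29 (median 0.09), with 9 of 24 pairs over 0.1. Different numbers had a median of -0.03 (-0.33 to 0.27), and 11 of 16 arrays correlated best with their own number. Each number lay on 1 slide, and arrays of the same slide had a median of 0.08, against -0.09 for different slides. Number and slide are therefore not separated by these values. That IGF2 change also passed with the 2 groups alone (adjusted p = 0.0446), and within slide 1 MEST passed on days 40-45 at -2.90 and -2.06 (adjusted p = 0.0491 and 0.0387). MEST probe ABR1521 gave -0.60 on days 150-160 against cyclic cows with normexp. Other imprinted genes called on days 150-160 against cyclic cows were 1 with probes bright on all arrays, within slide 1 or with the floor, and 0 within slide 2 or with the 2 groups alone. Of the same list 1 was called on days 150-160 against days 20-25 with quantile normalization, and 1 on days 40-45 against cyclic cows within slide 1. IGF axis calls on days 40-45 against cyclic cows were 1 with no filter or the 2 groups alone and 0 within either slide; on days 20-25, 0 within either slide or with the 2 groups alone; and on days 150-160, 1 within either slide and 3 with the 2 groups alone. The correlation of IGF2 and IGF2R was 0.68, 0.735 and 0.697 (adjusted permutation p = 0.046, 0.042 and 0.024) with normexp, quantile normalization and slide as a block, and that of IGF2R and MEST 0.583 with normexp (adjusted permutation p = 0.046). DLK1 and NNAT had 0.63, 0.674 and 0.597 (adjusted permutation p = 0.086, 0.053 and 0.19) with normexp, median scaling and slide as a block, and MEST and PEG3 0.67 and 0.696 with the last of these settings (adjusted permutation p = 0.053 and 0.063). The causes of these differences were not tested, beyond the fewer arrays in the fits within a slide or of 2 groups.

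Leaving out single cows, called probes ranged from 580 to 1106 on days 150-160, 63 to 226 on days 40-45 and 4 to 85 on days 20-25 against cyclic cows, from 88 to 243 for days 150-160 against 20-25, 2 to 19 for days 150-160 against 40-45 and 0 to 8 for days 40-45 against 20-25. Other imprinted genes called ranged from 1 to 4 on days 150-160 and from 0 to 1 on days 20-25 and 40-45, and mannose 6-phosphate genes from 0 to 1 on days 150-160, against cyclic cows. IGF axis calls ranged from 3 to 6, 1 to 2 and 0 to 1 on days 150-160, 40-45 and 20-25 against cyclic cows, from 0 to 2 for days 150-160 against 20-25 and from 0 to 1 for days 150-160 against 40-45. MEST on days 40-45 against cyclic cows ranged from -2.08 to -1.42 and from -1.52 to -0.84 at its probes. Correlations ranged from 0.569 to 0.762 for DLK1 and NNAT, 0.571 to 0.761 for MEST and PEG3, 0.508 to 0.742 for IGF2 and IGF2R, 0.438 to 0.633 for IGF2R and MEST and 0.157 to 0.606 for PEG3 and DLK1. Signal over background limited the dimmer MEST probe, DIO3, GATM, MAGEL2, ATP10A, GNPTG, PLA2G4A and PCLAF, among the genes named.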
